A study of Homo sapiens with 37 samples.

Results

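Ribosomes are assembled in the nucleolus, where RNA polymerase I transcribes the ribosomal RNA precursor and a large set of assembly factors fold, modify and cut it and join it to ribosomal proteins. MYC is a transcription factor that binds DNA with its partner MAX at E-boxes, of which CACGTG is the canonical form, and the genes of this nucleolar machinery are textbook MYC targets. The 41 genes described here are nucleolar and ribosome assembly factors named in a list of 42 symbols, which was drawn up by role with earlier results of these data known, among them the lower MYC. They were found by their Ensembl identifiers among the 32055 genes of the count table, and PPAN, the remaining listed gene, was not analysed here. They comprise 5 proteins of small nucleolar ribonucleoproteins (snoRNPs), 3 subunits of RNA polymerase I, 15 factors of small subunit assembly, 13 of large subunit assembly and 5 nucleolar proteins with several functions.

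The study knocked out ZBTB7A, a zinc finger transcription factor that acts mainly as a repressor, in K562, an established human erythroleukemia cell line, and profiled RNA to examine metabolism after its loss. Cells were electroporated with the Cas9 and GFP plasmid px458, which carried a gRNA against ZBTB7A for the KO group and none for the control group. GFP-positive cells were sorted singly and grown into clones whose ZBTB7A status was examined by Western blot and Sanger sequencing. RNA was sequenced by a bulk form of SCRB-seq, which tags each captured mRNA at its 3′ end with a unique molecular identifier (UMI), so that a count is a number of molecules and does not depend on transcript length. The labels gave 26 KO and 11 control libraries by barcode and genotype alone. They name no clone, gRNA, culture or day, so the p-values measure the spread between libraries, which may in part be technical. Replicate numbers follow the order of the records and serve only as names. Each library pools many cells, so fewer cells with a transcript and less of it per cell cannot be told apart.

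KO libraries held 1070250 to 4270901 UMIs (median 2030965) and control libraries 563235 to 4710809 (median 3518944). ZBTB7A itself was read at its 3′ end, which does not check a frameshift in its coding sequence, and its level differed by a log2 fold change of 0.12 (SE 0.09, edgeR adjusted p = 0.33). Of 13 erythroid markers 12 had a row, and all 12 were detected at a mean of 1 CPM (the UMI count scaled to a common library total) or more, their sum spanning 3125 to 9850 CPM in KO and 3883 to 8559 in control libraries. Of the other markers, 2 of 5 for megakaryocytes, 2 of 5 for myeloid cells, 2 of 4 for lymphoid cells and 3 of 5 for fibroblasts and epithelia had a mean of at least 1 CPM, and none was at 0 in every library. Their sums were 2.69 to 60.4, 2.56 to 13.8, 7.12 to 153 and 299 to 670 CPM in KO libraries, and 0.734 to 8.15, 2.30 to 6.79, 9.86 to 25.01 and 382 to 584 CPM in control libraries. Their part in the results was not tested.

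Some KO libraries stood apart by whole chromosome regions, which touches several of the assembly genes and MYC itself. Over the 8514 genes that averaged 10 CPM or more, assembly genes left out, the median level of a region relative to the control libraries was computed in every library. In the same 6 KO libraries (KO replicates 4, 5, 10, 22, 24 and 25) the genes of chromosome 4 lay at -0.47 to -0.42 on the log2 scale and those of chromosome 8 at -0.50 to -0.45, against -0.04 to 0.10 and -0.04 to 0.05 in the other KO libraries. In 5 other KO libraries (7, 9, 19, 21 and 23) the genes of chromosome 2 between 190 and 230 Mb lay at -0.49 to -0.42. A further 6 KO libraries (6, 14, 15, 16, 17 and 26) had genes of chromosome 1 between 10 and 40 Mb at -0.38 to -0.31. None of the 11 control libraries was low in any of these regions, no library was in more than 1 set, and 9 KO libraries were in none. On the X chromosome from 100 Mb on, the 5 libraries of the chromosome 2 set, KO replicate 18, which is among these 9, and 5 control libraries were low, so the 9 are not free of every such difference. Chromosome 8 carries MYC, BOP1 and RRS1, chromosome 4 LYAR and NOP14, the chromosome 2 region NOP58 and WDR12 with WDR75 and NCL just outside it, and the chromosome 1 region MRTO4. Results are therefore given for all 37 libraries and also without the 6 libraries low on chromosomes 4 and 8, and with only the 9 KO libraries outside these sets. These sets were seen in the data and are not groups of the study, and whether the libraries of a set come from 1 clone was not tested. If they do, p-values over libraries are too small.

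MYC was lower in the KO libraries. Its level, in log2 CPM with a prior count of 2, was lowest at 8.99, 9.28 at the median and highest at 9.73 in the control libraries, and 8.14, 8.78 and 9.59 in the KO libraries. It lay below the lowest control library in 18 of 26 KO libraries and above the highest in none. The log2 fold change was -0.50 (SE 0.12, edgeR adjusted p = 0.0019), which is 0.706 of the control level. The 6 libraries low on chromosomes 4 and 8 held the 6 lowest MYC levels, between -1.23 and -0.92 relative to the control mean. Without them the log2 fold change of MYC was -0.36 (adjusted p = 0.0058), and with the 9 KO libraries outside the sets it was -0.56 (adjusted p = 1.1e-05). Of the other 10 genes of the MYC and MAX network that were tested, MAX, the obligate partner, fell by 0.21, while MYCL rose by 0.42 and the repressors MXD3 and MXI1, which compete for MAX, rose by 0.36 and 0.22. MLXIP, a glucose-sensing relative, rose by 0.33.

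The E-box was looked for first in the promoters, because it is the letters that MYC and MAX are known to bind. RefSeq promoter windows of GRCh38.p14, from 250 bases before to 50 after a transcription start, were on hand for 34 of the 41 genes. No window was used for BOP1, DDX18, NOLC1, NOP58, RRP12, RRP1B or RRS1. CACGTG, which reads the same on either strand, occurred in a window of 19 of the 34 genes (55.9%), against 7.26% of all 35116 windows, 8.77% of all genes and 13.3% of the 8137 tested genes with a window. Genes of this machinery are textbook MYC targets, so the share may reflect how the list was chosen. It is a description of the list and not a result of these libraries. CACGCG on either strand, a non-canonical form that differs from it at a letter so that no match counts for both, occurred in 12 (35.3%), against 23.7% of tested genes. Of the 34 genes 25 held at least 1 of these motifs. The share of all tested genes that hold either motif is not given here, so that count has no background beside it. The E-box was in 10 of 14 genes of small subunit assembly, 5 of 9 of large subunit assembly, 3 of 5 multifunctional nucleolar proteins, 1 of 3 snoRNP genes and 0 of 3 polymerase I subunits. Among the other lists it was in 27.1% of 107 further ribosome biogenesis genes, 48.8% of 41 other MYC target genes and 6.67% of 60 cytosolic ribosomal protein genes.

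The 21 matches are shown with up to 12 bases on either side, since they are the letters by which these promoters differ from most others. Sequences are from RefSeq on GRCh38.p14, 5′ to 3′ on the strand of the gene, with the E-box in capitals.
FBL, chr19:39846356-39846385, - strand: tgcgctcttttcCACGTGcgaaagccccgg
UTP4, chr16:69132621-69132650, + strand: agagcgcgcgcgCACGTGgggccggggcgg
UTP20, chr12:101280083-101280112, + strand: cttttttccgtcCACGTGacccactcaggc
WDR43, chr2:28894658-28894687, + strand: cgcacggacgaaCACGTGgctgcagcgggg
NAT10, chr11:34105602-34105631, + strand: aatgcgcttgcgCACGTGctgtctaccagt
NOP14, chr4:2963374-2963403, - strand: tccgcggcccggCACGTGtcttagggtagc
NOL6, chr9:33473894-33473923, - strand: ggcatttccgccCACGTGggaagctatgag
RRP9, chr3:51941892-51941921, - strand: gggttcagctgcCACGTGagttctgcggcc
IMP4, chr2:130342682-130342711, + strand: gcggtcctaagtCACGTGtgacattctgta
IMP4, chr2:130342900-130342929, + strand: ttctcccggaccCACGTGgaagcggcactc
BYSL, chr6:41921515-41921544, + strand: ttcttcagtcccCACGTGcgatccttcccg
PNO1, chr2:68157885-68157914, + strand: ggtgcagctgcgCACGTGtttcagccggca
PES1, chr22:30591880-30591909, - strand: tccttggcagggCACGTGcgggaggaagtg
NOP2, chr12:6568242-6568268, - strand: aggtccggattgCACGTGgagggccgc
GNL3, chr3:52686026-52686055, + strand: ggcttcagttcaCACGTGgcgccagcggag
MRTO4, chr1:19251807-19251836, + strand: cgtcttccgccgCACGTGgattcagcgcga
EBNA1BP2, chr1:43172790-43172819, - strand: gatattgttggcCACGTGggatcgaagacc
EBNA1BP2, chr1:43172241-43172260, - strand: gcgattcggtggCACGTGga
DDX21, chr10:68956604-68956633, + strand: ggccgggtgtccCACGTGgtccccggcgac
LYAR, chr4:4290068-4290097, - strand: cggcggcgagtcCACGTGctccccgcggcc
MYBBP1A, chr17:4555340-4555369, - strand: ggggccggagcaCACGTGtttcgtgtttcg
In these genes the first base of the match lay between positions -237 and 43 counted from the start, and 8 of the 21 matches began before it. IMP4 had a match on either side of its start, and EBNA1BP2 a match in each of the windows of different starts. A match of letters is not evidence of binding, which was not measured here.

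The promoters of POLR1B and LYAR are printed for the 250 bases before a start, because these genes are taken up at length in the results. POLR1B had no E-box in either of its 2 windows. LYAR held it in the second of its windows, at position -64 from the start, in capitals here.
POLR1B, chr2:112541786-112542035, + strand: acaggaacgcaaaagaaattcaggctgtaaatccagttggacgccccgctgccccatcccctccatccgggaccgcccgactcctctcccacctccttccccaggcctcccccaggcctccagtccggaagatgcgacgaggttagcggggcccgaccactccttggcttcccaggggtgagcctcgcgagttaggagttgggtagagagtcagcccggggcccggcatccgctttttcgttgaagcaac
LYAR, chr4:4290022-4290271, - strand: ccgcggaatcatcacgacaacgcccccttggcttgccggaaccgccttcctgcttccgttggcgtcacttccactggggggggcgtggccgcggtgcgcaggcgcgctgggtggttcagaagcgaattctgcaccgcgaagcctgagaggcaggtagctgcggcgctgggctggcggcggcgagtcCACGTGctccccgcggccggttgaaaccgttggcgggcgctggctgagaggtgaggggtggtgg

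Compared with the control libraries, the assembly genes were slightly lower in the KO libraries. All 41 were tested, and 18 were lower at an adjusted p below 0.05 (edgeR quasi-likelihood test, Benjamini-Hochberg over 10661 genes), which is 43.9% against 16.2% of all genes tested. None was higher, against 17.7% of all genes, although limma-voom and DESeq2 each called 1, DKC1. At an unadjusted p below 0.05, 3 of the 41 were higher, and so were 2368 of all 10661 genes. The median log2 fold change was -0.13, beside -0.0046 over all genes. Of the 41 values 36 were negative, beside 5432 of all 10661. The changes were small. With a fall of more than 0.5 on the log2 scale required besides the test, no assembly gene was left, against 3.53% of all genes.

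**Figure D1:**
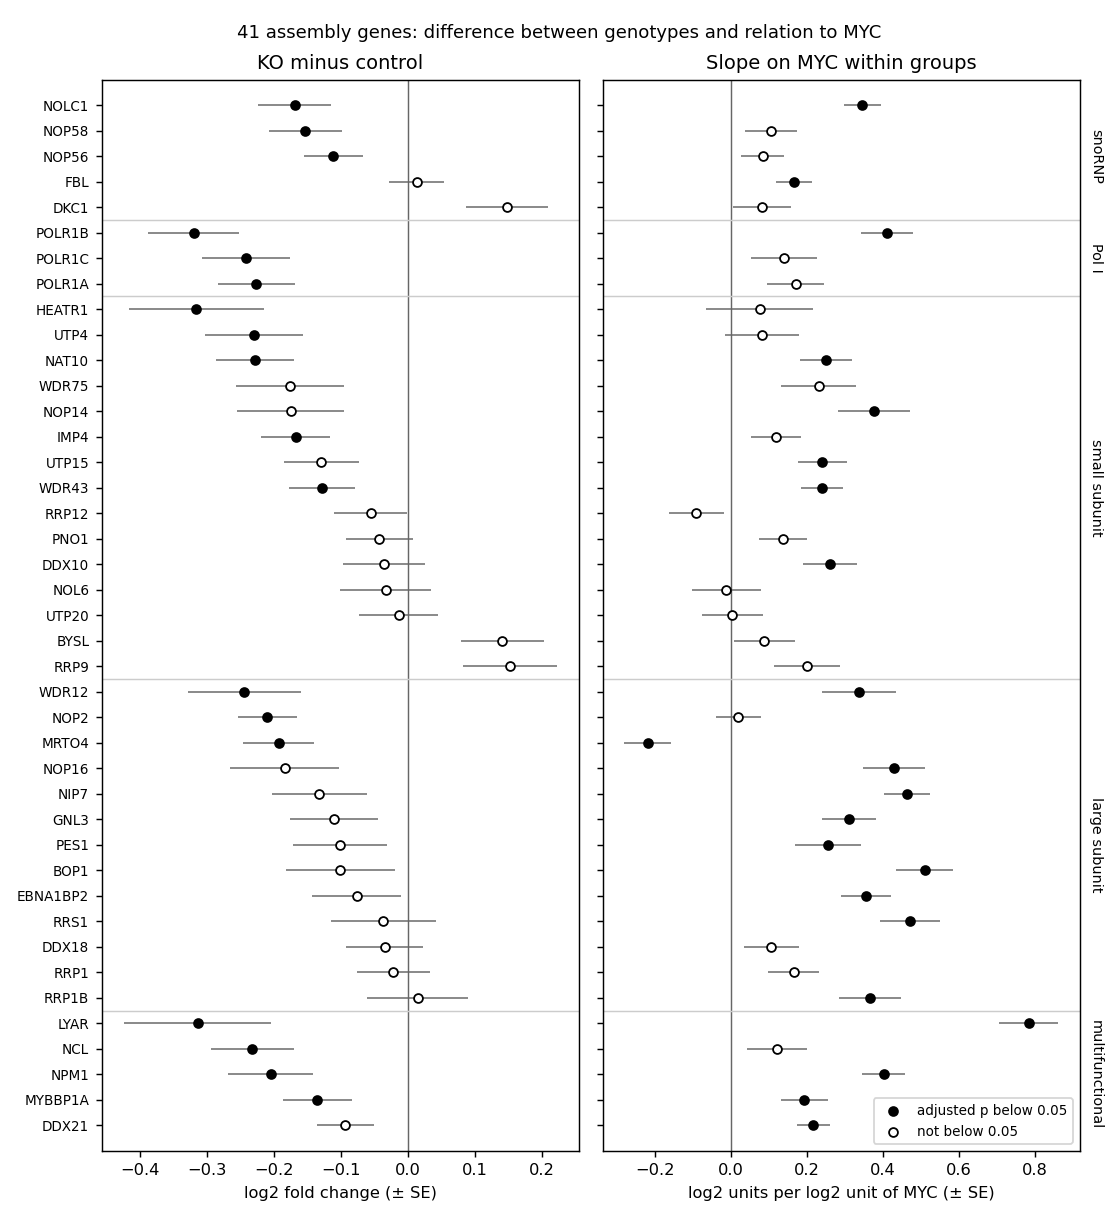
The 41 assembly genes by role, with the log2 fold change between 26 KO and 11 control libraries on the left and the slope on the MYC level within groups on the right. Points are estimates, bars are 1 standard error on either side and filled points passed an adjusted p of 0.05. On the left the 18 filled points all lie below 0, between -0.32 and -0.11, and on the right 21 of 22 lie above 0.

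The set of lower genes depended on the libraries with low regions. Without the 6 libraries low on chromosomes 4 and 8, 10 assembly genes were lower, against 14.4% of all genes, and all 10 were among the 18. BYSL alone was higher, against 16% of all genes. With the 9 KO libraries outside the sets against the 11 controls, 10 were lower, against 12.7% of all genes, of which 8 were among the 18, and BYSL was again the only 1 higher, against 13.2%. The 5 genes lower in all 3 fits were POLR1B, UTP4, NAT10, NOP2 and NCL. Outside the regions described, the median level of the genes within 10 Mb was below -0.2 in 4 KO libraries for NAT10 and in 2 for POLR1B. For UTP4, NOP2 and NCL it was so in no KO library. NCL lies just outside the chromosome 2 region, however, and its correlation with these neighbours over the KO libraries was 0.72. NCL itself was at -0.75 to -0.47 in the 5 libraries low there. The part of such neighbours in these calls was not tested. Lost without the 6 libraries were NOP56, NOP58, NOLC1, WDR43, WDR12, NPM1, LYAR and MYBBP1A. Lost with the 9 were NOP56, NOP58, POLR1A, POLR1C, WDR43, HEATR1, IMP4, WDR12, MRTO4 and MYBBP1A. The median log2 fold change was -0.08 without the 6 libraries and -0.12 without the 17. With every library thinned to the smallest total, NOP56, NOP58, POLR1A, POLR1B, POLR1C, UTP4, WDR43 and IMP4 did not pass.

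RNA polymerase I, with only 3 listed subunits, was the role in which every listed gene was lower. Of 11 further tested genes of polymerase I and its factors, 3 were lower (27.3%), beside 16.2% of all genes, with a median of -0.09. POLR1B, the smaller of the 2 large catalytic subunits of polymerase I, had the largest fall of all 41 genes. Its level was 6.34, 6.59 and 6.66 log2 CPM at the lowest, median and highest control library, and 5.74, 6.24 and 6.49 in the KO libraries. The groups overlapped, with 17 of 26 KO libraries below the lowest control and none above the highest. Its log2 fold change was -0.32 (SE 0.07, adjusted p = 3.2e-04), or 0.801 of the control level, -0.24 without the 6 libraries low on chromosomes 4 and 8 and -0.28 with the 9 KO libraries outside the sets. POLR1A, the largest subunit, fell by 0.23 (SE 0.06, adjusted p = 0.0023). POLR1C, which RNA polymerase III also contains, fell by 0.24 (SE 0.07, adjusted p = 0.0037). The 3′ end of POLR1C overlaps that of XPO5 on the other strand, and the counting strand is not given in the sources used here. XPO5 held 18015 UMIs against 8856 for POLR1C, and its log2 fold change was 0.01. Whether the 2 genes shared reads was not tested. Neither POLR1A nor POLR1C passed with the 9 KO libraries outside the sets. None of the 3 subunits passed with every library thinned to the smallest total, POLR1A at -0.24 (adjusted p = 0.061), POLR1B at -0.23 (adjusted p = 0.11) and POLR1C at -0.20 (adjusted p = 0.15).

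The box C/D snoRNP proteins guide methylation of ribosomal RNA. NOP58, a core protein, fell by 0.15 (adjusted p = 0.027), and its partner NOP56 by 0.11 (adjusted p = 0.044). FBL, the methyltransferase and the third most abundant of the 41 genes, did not differ beyond the spread of the libraries. It stood at 9.60, 9.73 and 9.87 log2 CPM in control and 9.55, 9.74 and 9.95 in KO libraries, with a log2 fold change of 0.01 (SE 0.04, adjusted p = 0.85). NOLC1, a chaperone of snoRNPs, fell by 0.17 (adjusted p = 0.015), and 17 of 26 KO libraries lay below the lowest control. Without the 6 libraries low on chromosomes 4 and 8 NOLC1 was at -0.11 and did not pass (adjusted p = 0.078). NOP58 sits in the chromosome 2 region and was at -0.50 to -0.34 in the 5 libraries low there, and it passed neither without the 6 libraries nor with the 9. Its call was also lost when Control replicate 3, 6 or 8 was left out, with adjusted p-values of 0.075, 0.065 and 0.052, and that of NOP56 in 23 of 37 such fits.

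DKC1, the pseudouridine synthase of box H/ACA snoRNPs, was at 0.15 on the log2 scale (adjusted p = 0.055). Its gene is on the X chromosome, where the 143 genes from 100 Mb on were low in 6 KO and 5 control libraries. DKC1 stood at 8.28 to 8.33 log2 CPM in these 5 control libraries and at 8.76 to 8.90 in the other controls. Among the KO libraries only replicate 18 was as low, at 8.29. The others, with those of the chromosome 2 set among them, stood at 8.66 to 8.87. The groups thus covered much the same range, but the low levels were mostly in control libraries. Leaving out Control replicate 1, 2, 5, 7, 10 or 11 or KO replicate 18 brought its adjusted p to between 0.019 and 0.042.

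Of the 15 genes of small subunit assembly 5 were lower, which is 33.3%, beside 16.2% of all genes. Negative values were found in 13 of the 15, beside 5432 of all 10661 genes. UTP4, HEATR1, UTP15, WDR43 and WDR75 belong to the complex that joins transcription by polymerase I to the first processing steps. Among them HEATR1 had the second largest fall of the 41 genes. Its level was 4.23, 4.68 and 5.08 log2 CPM in control and 3.85, 4.36 and 5.21 in KO libraries. The groups overlapped widely, with 10 KO libraries below the lowest control and 1 above the highest. HEATR1 fell by 0.32 (SE 0.10, adjusted p = 0.013), but it is also the least abundant of the 41 genes, at a mean of 24.7 CPM in control libraries, and with the 9 KO libraries outside the sets its value was -0.17 (adjusted p = 0.32). Its 3′ end overlaps LGALS8, whose log2 fold change was 0.09 (adjusted p = 0.66). UTP4 fell by 0.23 (SE 0.07, adjusted p = 0.013) and WDR43 by 0.13 (adjusted p = 0.042), the latter a call that 19 of the 37 fits with 1 library left out lost. SNTB2, which overlaps the 3′ end of UTP4, had a value of -0.10 (adjusted p = 0.56).

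NAT10, the acetyltransferase of small subunit ribosomal RNA, fell by 0.23 (SE 0.06, adjusted p = 0.0023). IMP4, which holds the U3 snoRNA on the precursor, fell by 0.17 (adjusted p = 0.0099). NAT10 was lower in all 3 fits, at -0.20 without the 6 libraries and -0.21 with the 9.

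The remaining factors of small subunit assembly did not pass. UTP15 was at -0.13 (adjusted p = 0.068), WDR75 at -0.18 and NOP14, a scaffold of the precursor particle, at -0.18. UTP20, NOL6, the helicase DDX10, PNO1 and RRP12, which acts in export of the particle, lay between -0.06 and -0.01. Positive values were found for RRP9, a U3 snoRNP protein, at 0.15 and for BYSL, which binds the late nuclear precursor, at 0.14. BYSL rose by 0.17 without the 6 libraries low on chromosomes 4 and 8 (adjusted p = 0.035) and by 0.26 with the 9 KO libraries outside the sets (adjusted p = 0.0052), and it also passed when KO replicate 5 or 23 or Control replicate 7 was left out. RRP9 passed without Control replicate 2 or KO replicate 19. WDR75 is close to the chromosome 2 region and was at -0.74 to -0.54 in the 5 libraries low there. NOP14, on chromosome 4, was at -0.71 to -0.44 in the 6 libraries low on that chromosome, and its antisense neighbour NOP14-AS1 was at -0.31 (adjusted p = 0.059) over all libraries.

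Of the 13 genes of large subunit assembly 3 were lower, which is 23.1%, beside 16.2% of all genes. NOP2, a methyltransferase of large subunit ribosomal RNA, had the most KO libraries below the lowest control library. Control levels were 5.85, 5.97 and 6.14 log2 CPM and KO levels 5.51, 5.78 and 6.02, with 23 of 26 KO libraries below the lowest control. NOP2 fell by 0.21 (SE 0.04, adjusted p = 2.8e-04), by 0.22 without the 6 libraries and by 0.21 with the 9. MRTO4, which precedes the stalk protein on the large subunit, fell by 0.19 (SE 0.05, adjusted p = 0.0039), and WDR12, of the complex with PES1 and BOP1, by 0.24 (SE 0.08, adjusted p = 0.023). MRTO4 lies in the chromosome 1 region, where its own values were -0.52 to -0.34 in the 6 libraries low there. WDR12 lies in the chromosome 2 region and was at -0.85 to -0.67 in the 5 libraries low there. Neither passed with the 9 KO libraries outside the sets, at -0.12 (adjusted p = 0.083) and -0.14 (adjusted p = 0.080).

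Among the other genes of large subunit assembly, BOP1 and PES1 were each at -0.10. The 5S particle factor RRS1 was at -0.04, the nucleolar GTPase GNL3 at -0.11, NIP7 at -0.13, NOP16 at -0.18 and EBNA1BP2 at -0.08, none of which passed. The helicase DDX18 was at -0.03 and the paralogs RRP1 and RRP1B at -0.02 and 0.01. In the 6 libraries low on chromosomes 4 and 8, BOP1 was at -0.67 to -0.52 and RRS1 at -0.88 to -0.23. GNL3 and NIP7 passed only in the fit with the 9 KO libraries outside the sets, among the 3 fits, at -0.21 (adjusted p = 0.025) and -0.25 (adjusted p = 0.0025). The 3′ ends of NOP16 and GNL3 overlap ARL10 and GLT8D1, which were at -0.08 and 0.02.

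Of the 5 multifunctional nucleolar proteins 4 were lower, which is 80%, beside 16.2% of all genes. NPM1, the chaperone nucleophosmin and the most abundant of the 41 genes, was at 10.35, 10.42 and 10.55 log2 CPM in control and at 9.79, 10.24 and 10.53 in KO libraries. It lay below the lowest control in 18 KO libraries and above the highest in none, and it fell by 0.20 (SE 0.06, adjusted p = 0.011). NPM1 did not pass without the 6 libraries low on chromosomes 4 and 8, at -0.12 (adjusted p = 0.054), nor with AT-rich barcodes only, at -0.21 (adjusted p = 0.093). NPM1 has 40 processed pseudogenes with rows of their own, which held 1923 UMIs against 122495 for the gene, so some reads may have been split between them. NCL, nucleolin, was at 10.21, 10.36 and 10.42 log2 CPM in control and 9.60, 10.15 and 10.37 in KO libraries, and 16 KO libraries lay below the lowest control. It fell by 0.23 (SE 0.06, adjusted p = 0.0034), the same without the 6 libraries and by 0.15 (adjusted p = 0.0052) with the 9. In the 5 libraries low on chromosome 2, NCL was at -0.75 to -0.47, and in the 9 KO libraries outside the sets at -0.27 to -0.08, so all of these 14 lay below the control mean.

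LYAR, a nucleolar zinc finger protein of growing cells, had the third largest fall. Control libraries stood at 8.11, 8.16 and 8.53 log2 CPM and KO libraries at 7.15, 7.86 and 8.35, with 19 of 26 below the lowest control. LYAR fell by 0.31 (SE 0.11, adjusted p = 0.025), or to 0.804 of the control level, and the call was lost without Control replicate 5, which held its highest control level (adjusted p = 0.063). In the 6 libraries low on chromosomes 4 and 8 it was at -1.05 to -0.87, with their chromosome 4 genes at -0.47 to -0.42 at the median. Without these 6 LYAR was at -0.17 and did not pass (adjusted p = 0.070). With the 9 KO libraries outside the sets it was at -0.30 (adjusted p = 0.0013). MYBBP1A, a regulator of polymerase I and ribosomal RNA processing, fell by 0.14 (adjusted p = 0.038), a call lost in 16 of the 37 fits with 1 library left out. The helicase DDX21 was at -0.09 (adjusted p = 0.085).

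On GRCh38, by the positions of GENCODE release 44, POLR1B (ENSG00000125630) spans chr2:112541915-112579818 on the + strand, HEATR1 (ENSG00000119285) chr1:236549005-236604516 on the - strand, LYAR (ENSG00000145220) chr4:4267701-4290154 on the - strand, NPM1 (ENSG00000181163) chr5:171387116-171411810 on the + strand, NCL (ENSG00000115053) chr2:231453531-231483641 on the - strand and NOP2 (ENSG00000111641) chr12:6556863-6568691 on the - strand. The 41 genes were not spread evenly, with 10 of them on chromosome 2, which carries 6.83% of the tested genes. Of these 10, 7 were lower in the KO libraries, against 16.2% of all genes tested. The share of chromosome 2 genes that were lower is not given here, and the median log2 fold change of its 728 tested genes was -0.03. Among the 7, NOP58 and WDR12 lie in the chromosome 2 region and NCL just outside it, and all of them were low in the 5 libraries low there.

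**Figure D2:**
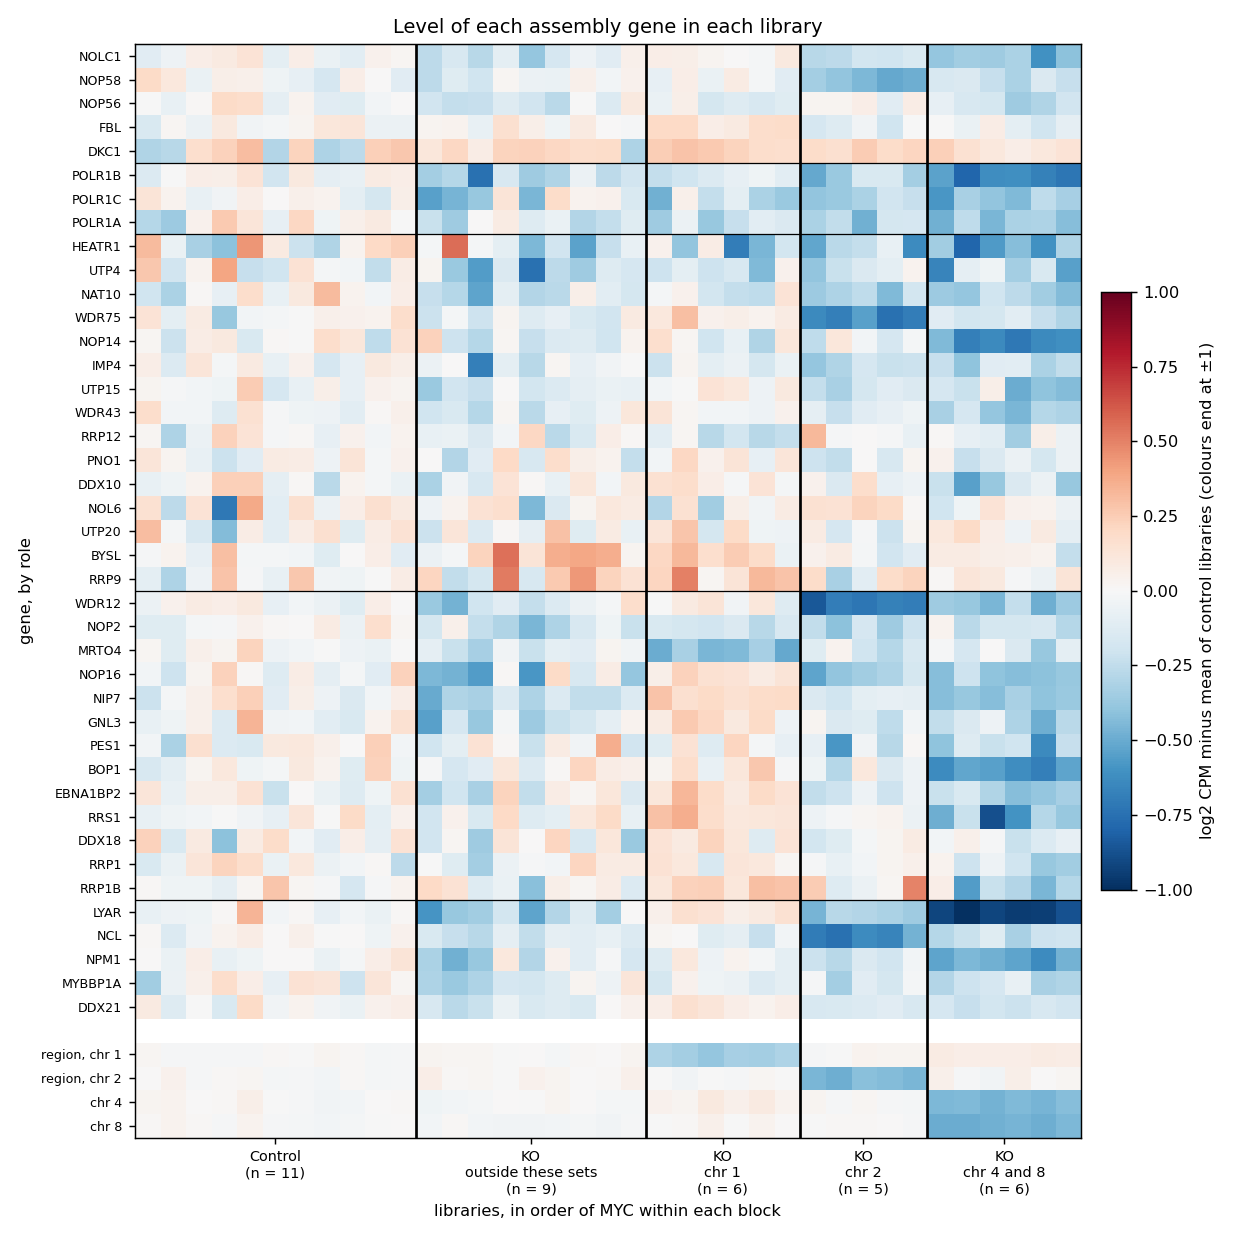
Level of each of the 41 assembly genes in each of 37 libraries, as log2 CPM minus the mean of the control libraries. Columns are libraries in order of MYC within blocks, rows are genes by role, and the lowest rows are the medians of the genes of each region. The 6 libraries low on chromosomes 4 and 8 are blue in most rows, LYAR most of all at -1.05 to -0.87.

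Next, the assembly genes were followed library by library against MYC. The slope of a gene is the change in its log2 level per log2 unit of MYC among libraries of the same genotype, from a fit with genotype and MYC level as terms. Of the 41 genes 21 rose with MYC at an adjusted p below 0.05 (51.2%), against 15.8% of the 10660 genes tested, and MRTO4 alone fell, against 15.3%. The median slope was 0.20, beside -0.0076 over all genes. Of the 41 slopes 38 were above 0, beside 5201 of all 10660. MYC and the assembly genes were measured in the same libraries and share their scaling.

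Among the roles, 9 of 13 genes of large subunit assembly rose with MYC, 4 of 5 multifunctional proteins, 5 of 15 genes of small subunit assembly, 2 of 5 snoRNP genes and 1 of 3 polymerase I subunits. Over all genes 15.8% rose. LYAR had the steepest slope, at 0.78 (SE 0.08, adjusted p = 4.7e-10). It was 0.54 (adjusted p = 1.7e-04) without the 6 libraries low on chromosomes 4 and 8, where LYAR and MYC lie, and 0.23 (adjusted p = 0.74) with the 9 KO libraries outside the sets. Over the 26 KO libraries its Pearson correlation with MYC was 0.94, and over the 11 control libraries -0.08. BOP1 (slope 0.51) and RRS1 (0.47) lie on chromosome 8 with MYC, and their slopes were 0.21 and 0.24 without the 6 libraries low there, of which only that of RRS1 passed. NIP7 had a slope of 0.46 (SE 0.06, adjusted p = 1.6e-07), NOP16 of 0.43, POLR1B of 0.41 and NPM1 of 0.40. NOP14, on chromosome 4, went from 0.38 to 0.06 without those libraries, and DDX10 from 0.26 to 0.10, and neither then passed. NIP7, NOP16, POLR1B and NPM1 are on chromosomes 16, 5, 2 and 5, and without the 6 libraries their slopes were 0.50, 0.56, 0.26 and 0.26.

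**Figure D3:**
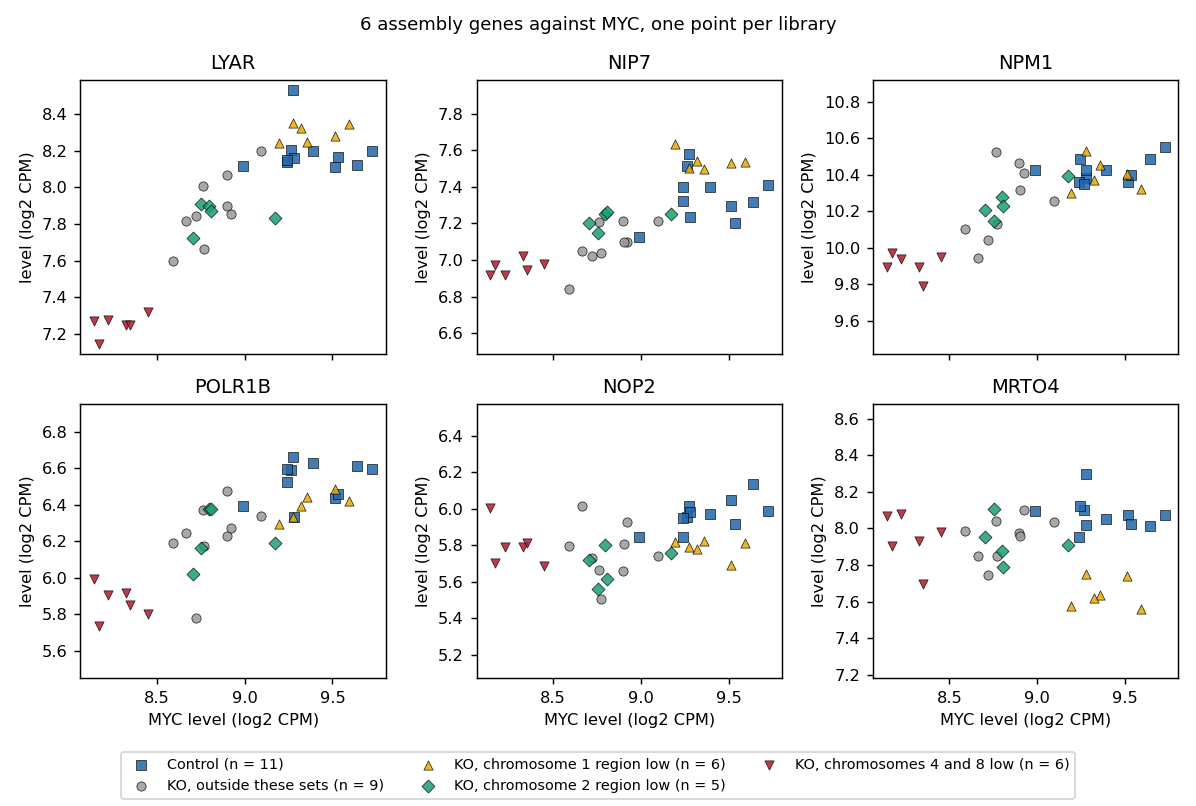
Level of LYAR, NIP7, NPM1, POLR1B, NOP2 and MRTO4 against MYC, both in log2 CPM, with a point for each of 37 libraries. Colours and shapes mark control libraries and the sets of KO libraries by low region. LYAR climbs with MYC through the KO libraries (slope 0.78), NOP2 is below its lowest control in 23 KO libraries (slope 0.02), and MRTO4 is lowest in the 6 libraries low on chromosome 1.

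A lower level in KO and a slope on MYC did not go together in every gene. NOLC1, POLR1B, WDR43, NAT10, WDR12, NPM1, LYAR and MYBBP1A were both lower and rising with MYC. The other 10 lower genes did not rise with it. Among them NOP2, lower in 23 KO libraries than in any control, had a slope of 0.02 (adjusted p = 0.86), HEATR1 of 0.07 (adjusted p = 0.74) and NCL of 0.12 (adjusted p = 0.25). The slope of MRTO4 was -0.22 (SE 0.06, adjusted p = 0.0051) over all libraries and 0.02 with the 9 KO libraries outside the sets, and the 6 libraries low on chromosome 1, where MRTO4 lies, had MYC at -0.19 to 0.21 relative to the control mean, the highest of the KO sets. PES1, with a slope of 0.26 (adjusted p = 0.022), did not pass without KO replicate 6 (adjusted p = 0.059) or 10 (adjusted p = 0.051), nor with depth as a covariate, at 0.17 (adjusted p = 0.15). FBL, not lower in KO, rose with MYC at a slope of 0.17 (adjusted p = 0.0054).

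The relation with MYC weakened as libraries with low regions were left out. Without the 6 low on chromosomes 4 and 8, 15 assembly genes rose, against 9.51% of all genes, 14 of them among the 21, and 1 fell, against 10.7%. With the 9 KO libraries outside the sets and the 11 controls, none rose or fell by edgeR at an adjusted p below 0.05, against 0% and 0% of 10702 genes. There 35 of 41 slopes were above 0 with a median of 0.11, and the share of all genes above 0 is not given here. At an unadjusted p below 0.05, 2 of the 41 rose, and so did 470 of the 10702 genes. In the 11 control libraries alone none rose, against 0.0415% of 9633 genes, and none fell, against 0.0104%. At an unadjusted p below 0.05 none rose or fell either, while 451 of the 9633 genes rose and 438 fell. The median slope in the control libraries was 0.03. MYC spanned 8.99 to 9.73 log2 CPM there and 8.14 to 9.59 in the KO libraries. LYAR alone differed in slope between the genotypes at an adjusted p below 0.05, as 0.478% of all genes did. With the 9 KO libraries outside the sets LYAR did not pass and WDR12 did, against 1.77% of all genes.

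Summed over the 41 genes, the level was 9925, 10592 and 11222 CPM at the lowest, median and highest control library and 8407, 9252 and 11420 CPM in the KO libraries. It lay below the lowest control in 15 KO libraries, within the control range in 10 and above it in 1. All 6 libraries low on chromosomes 4 and 8 and all 5 low on chromosome 2 were among the 15, and none of the 6 low on chromosome 1. The 41 genes held 0.831% to 1.14% of all UMIs of a KO library, with a median of 0.933%, and 0.968% to 1.11% of a control library, with a median of 1.03%.

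**Figure D4:**
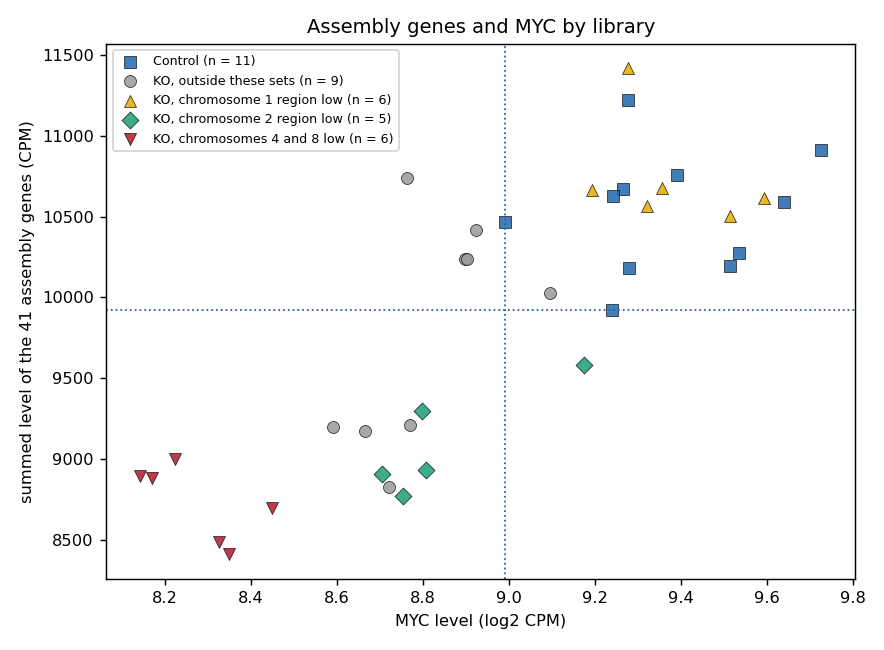
Summed level of the 41 assembly genes in CPM against MYC in log2 CPM, with a point for each library. Dotted lines mark the lowest control value on each axis. In 14 KO libraries, at lower left, both lie below every control library, and the 6 libraries low on chromosomes 4 and 8 are farthest left.

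The sum went with MYC over the 26 KO libraries with a Pearson correlation of 0.80 and a Spearman correlation of 0.81, and 0.79 without the 2 libraries farthest in MYC. The correlation was 0.72 over the 20 KO libraries left without the 6 low on chromosomes 4 and 8, 0.60 over the 9 outside the sets, and 0.14 over the 11 control libraries. Depth moved with both. The total UMIs of a KO library correlated with the sum at 0.63 and with MYC at 0.50, and the 15 KO libraries below the control range had a median of 1707977 UMIs against 3135117 in the other 11. These are descriptions of libraries that share their depth and scaling, and the part of depth was not tested beyond the fits that follow. With depth as a covariate 13 of the 18 genes were still lower and 20 genes rose with MYC. With every library thinned to 563235 UMIs 10 of the 18 were still lower, and slopes were not fitted to thinned counts. Barcodes differed between the genotypes as well, with 12 of 26 KO and 1 of 11 control libraries GC-rich, and with barcode class as a covariate 17 of the 18 were still lower and 23 genes rose. The shares of all genes called with depth, thinning or barcode class are not given here, so these counts have no background beside them.

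The assembly genes were also compared with each other. The median correlation over their 820 pairs was 0.35 in the KO libraries and 0.16 in the control libraries, and 34 of 41 genes had the larger SD in KO. No such figures for all genes are given here, so whether either is particular to the assembly genes was not tested. Genes of the same region share the low libraries, and for 9 of the 41 the correlation with the median of their neighbours within 10 Mb was above 0.7 over the KO libraries.

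With the MYC level as a further term in the comparison of genotypes, 2 assembly genes were lower, against 10.1% of all genes, and 2 higher, against 11.3%. The lower ones were NOP2 at -0.20 (adjusted p = 0.0063) and MRTO4 at -0.31 (adjusted p = 5.5e-05). The higher ones were RRP9 at 0.26 (adjusted p = 0.015) and RRS1 at 0.20 (adjusted p = 0.033). The median log2 fold change of the 41 genes in this fit was 0.0035. MYC and genotype move together in these libraries, so their parts cannot be told apart by such a fit.

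Whether a promoter held the E-box did not separate the genes that changed. It was in 8 of the 16 lower genes with a window and 11 of the 18 that did not pass, and in 10 of the 17 that rose with MYC and 9 of the 17 that did not. The median log2 fold change was -0.11 with the E-box and -0.18 without, and the median slope 0.19 and 0.23. Of the genes of steepest slope with a window, LYAR has the E-box printed above, and NIP7, NOP16, POLR1B and NPM1 have none in these windows.

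Related genes outside the 41 were counted in the same fit, in which 16.2% of all genes were lower and 17.7% higher, 15.8% rose with MYC and 15.3% fell. Of 122 further ribosome biogenesis genes 34 were lower (27.9%) and 6 higher, with a median log2 fold change of -0.09, and 56 rose and 3 fell with MYC. The largest differences were in POLR1E, another polymerase I subunit, which fell by 0.50, NLE1, of large subunit assembly, by 0.43, TAF1A, of the polymerase I selectivity factor, by 0.42 and RRP7A, of small subunit assembly, by 0.41. Of 76 cytosolic ribosomal protein genes 44 were lower and none higher, with a median of -0.13, and 20 rose and 2 fell with MYC. Of these ribosomal protein genes 29 were lower without Control replicate 9. With the 9 KO libraries outside the sets only 9 of the 76 were lower, a share no larger than the 12.7% of all genes lower in that fit. Among those that fell were RPL39, RPL34 and RPS27, by 0.35, 0.34 and 0.32. Chromosome positions of the genes named from these other lists are not given here. Whether any of them lies in a low region was not examined. Of 47 other MYC target genes 25 were lower and 2 higher, with a median of -0.15, and 20 rose and 1 fell with MYC. Without the 6 libraries low on chromosomes 4 and 8, 14 of the 47 were lower, against 14.4% of all genes. IPO4, an importin, fell by 0.41, the arginine methyltransferase PRMT1 by 0.40, the transferrin receptor TFRC by 0.37 and the polyamine enzyme ODC1 by 0.32. ODC1 had a slope on MYC of only 0.04. In the MYC network, MXD3 and MLXIP fell with MYC, at slopes of -0.87 (adjusted p = 3.4e-07) and -0.53 (adjusted p = 7.3e-06), and MXI1 rose at 0.35 (adjusted p = 0.0027).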

How the data were processed

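The data were bulk SCRB-seq libraries of K562 cells, 26 KO and 11 control. The authors mapped reads to hg38 with STAR 2.6.0a, per the submitters' processing notes, counted UMIs per gene with zUMIs and deposited the UMI counts without normalization. Strand use in counting is not given in the sources used here. Table columns were matched to samples by barcode, and symbols came from GENCODE release 44.

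The test was that of edgeR 4.0.16 in R 4.3.3, with the default filter on low counts, TMM normalization and a robust quasi-likelihood fit with genotype as the only term, and p-values were adjusted by Benjamini-Hochberg over all genes tested. A test with genotype and the log2 CPM of MYC gave slopes, and their interaction gave differences of slope. The test of genotypes and that of slopes were tried on simulated counts of independent libraries, and that of differences of slope was not. For the genotypes 91 of 100 genes changed by 0.5 (log2) and 95 of 100 changed by 1 were recovered, with 9 false calls among 10541 genes, and for the slope 196 of 200 of size 1, with 12 among 10540. The counts of MYC were simulated without noise. Smaller changes and slopes were not simulated, so recovery at the sizes found in the assembly genes was not tested. Sequences were read from RefSeq promoter windows of GRCh38.p14. The depth was 563235 to 4710809 UMIs per library. Plots were drawn with matplotlib 3.10.9.

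Named were all listed assembly genes, MYC and its partners, levels for the 3 assembly genes of largest fall and the 3 most abundant, and up to 4 genes of largest absolute log2 fold change past the threshold of each other list, of which a ribosomal protein gene is not reported here. Levels of NOP2 and DKC1 were added after their values were seen. The members and lists were chosen with earlier results of these data known. Alternatives were limma-voom (limma 3.58.1), DESeq2 1.42.0, other normalizations, filters and thresholds, barcode class, thinning and leaving out each library. A depth covariate for the slopes was planned. For the comparison of genotypes, fits with depth or MYC as covariates were added after the data were seen, as were all fits without libraries of low chromosome regions.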

Additional observations from a re-analysis of the deposited data

Results flagged for a closer look

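Over all 37 libraries, LYAR was the only assembly gene whose slope on the MYC level differed between the genotypes. The slope was steeper by 0.93 in the KO libraries than in the control libraries (SE 0.20, edgeR adjusted p = 0.0298 over all genes tested). Within KO libraries alone its level rose with MYC, and within the 11 control libraries the slope was -0.05. The difference did not pass when Control replicate 1, 3, 6 or 10 was left out, with values from 0.84 to 1.06 over all such fits and adjusted p-values of up to 0.41. Without the 6 KO libraries low on chromosomes 4 and 8, where LYAR and MYC lie, it was 0.74 (adjusted p = 0.068), and with the 9 KO libraries outside the sets low on chromosomes 1, 2 or 4 and 8 it was 0.998 (adjusted p = 0.14). In that last fit WDR12 was the assembly gene that passed, with a difference of 1.15 (SE 0.28, adjusted p = 0.031), against 0.40 (adjusted p = 0.62) over all libraries.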

How the results depend on the processing

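No paired analysis was possible because the labels carry no replicate numbers. The 3 polymerase I subunits, UTP4, HEATR1, NAT10, IMP4, NOP2, MRTO4, WDR12, NCL, NPM1 and NOLC1 were lower in the KO libraries in every fit with 1 library left out, in which 14 to 21 assembly genes were lower, 0 to 2 higher and 20 to 23 rose with MYC. Where a count moved, the cause was not tested. Shares of all genes are given above for the MYC covariate, for omitted low regions and for control libraries alone. For the other settings they are not given, so those counts have no background. Of the 18 lower genes 17 were still lower by limma-voom and by DESeq2, 18 with RLE size factors and with a mean of at least 10 CPM, 14 by library size alone, 13 with every gene of at least 1 count, 13 with AT-rich barcodes only and 8 at an adjusted p below 0.01. Higher in KO were 1 by limma-voom, by DESeq2 and with a mean of at least 10 CPM, 3 by library size alone, and 2 with depth or MYC as a covariate. Thinning left 11 lower, the MYC covariate 2, leaving out the 6 or the 17 libraries of low regions 10, with 1 higher in either case. Over the single omissions the difference of slopes was found in 0 or 1 gene, and in 0 without the 6 libraries. Among the other lists, library size alone gave 22 lower biogenesis genes and 16 lower and 4 higher MYC targets. Every gene of at least 1 count gave 2 higher biogenesis genes and 1 higher MYC target. Thinning gave 22 lower and 2 higher biogenesis genes, 27 lower ribosomal protein genes and 15 lower MYC targets. Lower ribosomal protein genes were 29 with barcode class as a covariate, 19 with AT-rich barcodes only, 9 without the 17 libraries and 29 to 45 with single omissions. MYC targets were lower in 14 without the 6 libraries and higher in 0 without the 17 and in 2 to 4 with single omissions, and 3 biogenesis genes were higher without the 17. Some differences changed sign. By library size alone these were UTP20 at 0.018, NOL6 at 0.00011 and RRP1 at 0.010. With barcode class as a covariate they were UTP20 at 0.017 and RRP1B at -0.067, and with AT-rich barcodes only FBL at -0.018, UTP20 at 0.026, NOL6 at 0.0099, RRP1B at -0.061 and DDX18 at 0.018. Thinned, they were FBL at -0.032, NOL6 at 0.020 and PES1 at 0.0089, and with depth as a covariate UTP20 at 0.026, PNO1 at 0.021, RRS1 at 0.019 and DDX18 at 0.034. With MYC as a covariate the median was 0.0035, with NOLC1 at 0.0096, NOP14 at 0.014, DDX10 at 0.10, PNO1 at 0.028, BOP1 at 0.16, PES1 at 0.030, NOP16 at 0.038, RRP1 at 0.066, RRS1 at 0.20, GNL3 at 0.050, DDX18 at 0.020, NIP7 at 0.10, EBNA1BP2 at 0.11, NPM1 at 0.0035, DDX21 at 0.020 and LYAR at 0.062. Without the 6 libraries they were DDX10 at 0.026, BOP1 at 0.014, RRP1 at 0.021 and RRS1 at 0.062, and without the 17 BOP1 at 0.013, RRP1 at 0.0026, RRP1B at -0.027 and RRS1 at 0.0015. Single omissions ranged from -0.064 to 0.0042 for NOL6, -0.043 to 0.00053 for RRP1, -0.0091 to 0.049 for RRP1B and -0.035 to 0.025 for UTP20. In control libraries alone 0 genes rose and 0 fell with MYC, the median slope was 0.030, and the slopes that changed sign were NOP56 at -0.12, NOP58 at -0.30, POLR1C at -0.18, UTP4 at -0.27, UTP20 at -0.042, WDR43 at -0.16, HEATR1 at -0.026, NOL6 at 0.063, IMP4 at -0.016, DDX10 at -0.11, BYSL at -0.086, PNO1 at -0.017, RRP12 at 0.044, WDR12 at -0.020, RRP1 at -0.15, RRP1B at -0.080, DDX18 at -0.13, EBNA1BP2 at -0.072 and LYAR at -0.047. Without the 17 libraries 0 rose and 0 fell, the median was 0.11, and they were NOP58 at -0.082, UTP4 at -0.20, HEATR1 at -0.21, NOL6 at 0.077, PNO1 at -0.024, RRP12 at 0.026, RRP1B at -0.15, DDX18 at -0.13 and MRTO4 at 0.017, and without the 6 HEATR1 at -0.21 and BYSL at -0.010. In KO libraries alone this was NOP2 at -0.014, without the 2 libraries farthest in MYC HEATR1 at -0.0065, by library size alone UTP20 at -0.012, with depth as a covariate UTP20 at -0.056 and with RLE size factors UTP20 at -0.00096. Single omissions ranged from -0.037 to 0.047 for the slope of UTP20 and from -0.046 to 0.026 for that of NOL6.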
